A study of Mus musculus with 4 samples.

Results

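The enzymes that branch N-linked glycans and the galectins that bind those branches were examined in thymocytes, taken in total from the thymus without sorting. The set held 9 genes of the 18193 named on the arrays: the branching enzymes Mgat1, Mgat2, Mgat4a, Mgat4b and Mgat5, and the galectins Lgals1, Lgals3, Lgals8 and Lgals9. They were represented by 15 probe sets of 45037, a probe set being a group of short array probes that are read together as 1 signal. The genes were selected on a measured value, the high signal of Mgat5 in the hypomorph animals, and completed by function. Their differences between the groups are therefore given as a description, with standard errors and without tests. Affymetrix arrays were hybridised with RNA from 2 hypomorph and 2 control mice, 1 array per animal. All animals were 7 weeks old, and each group had 1 male and 1 female, although the labels do not tie a sex to an array. By array, Xist, which is transcribed from the inactive X chromosome, gave 47.7 and 29.2 on the arrays numbered 1 (hypomorph, then control) and 3434 and 2915 on those numbered 2. Eif2s3y, a gene of the Y chromosome, gave 703 and 461 on the former and 4.52 and 3.43 on the latter. The replicate number therefore goes with these sex-linked signals in both groups, and differences within each number are given where they bear on a result. The hypomorphs carried an Atg16l1 allele of reduced function, whereas the controls are described as wild-type. How the allele was made, the cell types in which it acts and the strain could not be read from the sources used here.

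N-linked glycans are sugar trees attached to asparagines of secreted and membrane proteins. In the Golgi they are trimmed and then rebuilt by N-acetylglucosaminyltransferases acting in sequence: Mgat1 starts the first branch, Mgat2 the next, Mgat4a and Mgat4b add a further one, and Mgat5 adds the branch that is most readily extended with lactosamine repeats. Galectins are soluble lectins that bind those repeats and cross-link glycoproteins at the cell surface. In T cells, branched glycans made by Mgat5 are known to restrain clustering of the T cell receptor, and galectins are known to act on the survival of thymocytes.

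Promoter windows are shown for Mgat5 and Lgals3, the members with the highest and the lowest difference between the groups. The windows run from 250 bases before to 50 after a start site annotated by RefSeq on build GRCm38.p6. Capitals mark matches on either strand to CCGGAA, a core bound by ETS factors, or to GGGCGG, the GC box. Neither sequence held TATAAA.
Mgat5, chr1:127204736-127205035, plus strand: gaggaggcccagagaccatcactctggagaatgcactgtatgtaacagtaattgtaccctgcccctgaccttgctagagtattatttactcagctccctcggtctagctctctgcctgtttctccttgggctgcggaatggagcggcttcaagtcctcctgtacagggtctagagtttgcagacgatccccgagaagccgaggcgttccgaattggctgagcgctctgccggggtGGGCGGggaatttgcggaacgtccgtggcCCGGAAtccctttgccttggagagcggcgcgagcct
Lgals3, chr14:47373610-47373909, plus strand: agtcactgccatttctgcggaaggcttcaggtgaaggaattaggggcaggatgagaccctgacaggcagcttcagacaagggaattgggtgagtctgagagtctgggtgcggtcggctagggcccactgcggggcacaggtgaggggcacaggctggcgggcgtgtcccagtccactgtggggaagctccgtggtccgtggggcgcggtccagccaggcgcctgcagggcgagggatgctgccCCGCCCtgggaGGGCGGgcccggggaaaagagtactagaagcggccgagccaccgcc
The Mgat5 window held 1 ETS core and 1 GC box, and that of Lgals3 held 2 GC boxes and no ETS core. Among all 32851 promoter windows of this length, 14.9% held CCGGAA, 35.7% held GGGCGG and 13.6% held TATAAA. The GC content was 58.0% for Mgat5 and 67.0% for Lgals3, against a median of 52.7% over all windows, and each held 18 CpG dinucleotides against a median of 7. The table gave windows for 7 of the 9 members. These matches are letters in a window, and binding was not measured.

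The deposited signals had median values of 23.5 to 38.4 across the 4 arrays, with the highest on hypomorph replicate 1, so log2 values were centred on a common median. Arrays had at most 1 value in common, and their pairwise correlations across probe sets were 0.951 to 0.954. The T lineage markers Cd3e, Cd4, Cd8a, Rag1 and Dntt gave signals between 997 and 8417 on all 4 arrays. Atg16l1 itself gave 108 and 70.8 in the hypomorphs and 184 and 241 in the controls on its brighter probe set, a log2 difference of -1.57 ± 0.18 (SE). After centring, the 10235 tested genes still had a median log2 difference of 0.21 (hypomorph minus control), the tested probe sets being the 22519 with a mean log2 signal at or above the median. Differences are therefore also given relative to that value. With 2 arrays per group, an exact permutation test cannot give a p below 0.333, and the number of arrays limits the precision of all values.

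Of the 15 member probe sets, 13 passed the filter on dim signals, at least 1 for each of the 9 genes. Relative to the median of the tested genes, 9 of the 15 lay above and 6 below. After centring, the groups did not overlap in 8 of the 13. In 6 of these the hypomorph arrays were higher (46.2%, against 43.8% of all tested probe sets), and in 2 they were lower (15.4%, against 7.04%). This split depended on scaling. With quantile normalization 3 were higher and 3 lower (19.4% and 18.2% of all), with centring on the tested probe sets 4 and 4 (20.5% and 18.8%), and without centring 7 and 0 (65.9% and 0.635%). As background, limma called 14 of all 22519 probe sets (0.0622%) at an adjusted p under 0.05, and 9 in a fit blocked on replicate number. The brightest Mgat5 probe set is 1 of the 14, and since its difference chose the genes, nothing is read from that.

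**Figure D1:**
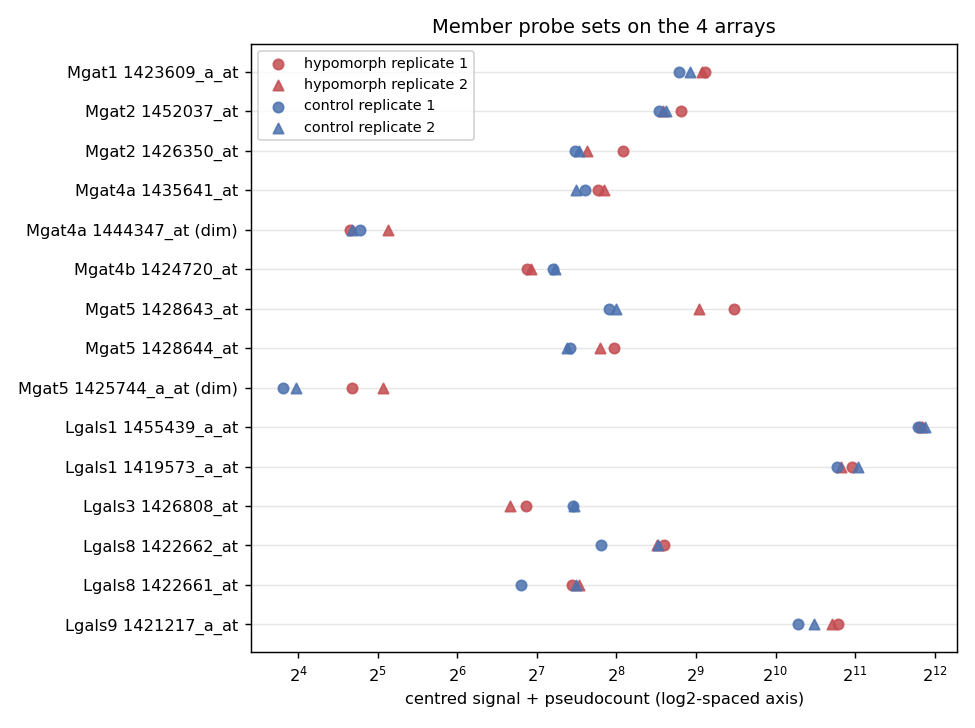
Centred signal plus pseudocount (log2-spaced axis) of each member probe set on each of the 4 arrays, with red for hypomorph and blue for control and a marker shape for each replicate number; "(dim)" marks probe sets under the filter. The red points of all 3 Mgat5 probe sets lie to the right of the blue ones, and those of Mgat4b and Lgals3 to the left.

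Mgat5 was higher in the hypomorphs on all 3 of its probe sets. The brightest, 1428643_at, read 936 and 500 in the hypomorphs, and 198 and 241 in the controls, as deposited. Both hypomorph arrays thus exceeded both controls, and hypomorph replicate 1 was well above hypomorph replicate 2. The mean centred log2 signal was 9.26 ± 0.32 (SD, n = 2) in the hypomorphs and 7.95 ± 0.06 (SD, n = 2) in the controls, a log2 difference of 1.31 ± 0.17 (SE), or 2.48-fold. On 1428644_at, which the annotation assigns to the same cDNA accession, the signals were 325 and 211 against 139 and 157. Here too the groups were apart, by a smaller log2 difference of 0.49 ± 0.16 (SE), or 1.40-fold. The third, 1425744_a_at, was under the filter on dim probe sets, with signals of 31.4 and 29.7 in the hypomorphs and 9.36 and 12.7 in the controls. Its groups did not overlap either, and its log2 difference of 0.98 ± 0.50 (SE) was the least precise of the 15.

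Leaving out either hypomorph array moved the size of the Mgat5 difference. Such a fit leaves the groups unequal in replicate number, so its shift also holds what goes with Xist and Eif2s3y. Relative to the median of the tested genes, the brightest probe set was at 1.10 with all arrays, at 0.83 without hypomorph replicate 1 and at 1.36 without hypomorph replicate 2, while the second probe set moved from 0.28 to 0.15 and 0.40. The dim probe set ranged from 0.48 with a larger pseudocount to 1.00 with quantile normalization. All 3 probe sets lay above the median under each of 13 processing alternatives. Several of these cannot move a value relative to the median, namely the changes of centring, the variance model and the replicate block. Between arrays of the same number, the brightest probe set differed by 1.57 (number 1) and 1.04 (number 2) on the centred log2 scale.

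Mgat1 and Mgat2, which act before Mgat5, had values near the median of the tested genes. For Mgat1, which starts branching, the signals were 727 and 512 in the hypomorphs and 364 and 463 in the controls, and the log2 difference of 0.24 ± 0.13 (SE) was 0.03 above the median of the tested genes. It crossed that median under other settings, from -0.04 without hypomorph replicate 1 to 0.09 without hypomorph replicate 2. Mgat2, which starts the next branch, had signals of 585 and 366 against 306 and 376 on 1452037_at, where the groups overlapped. Its other probe set, 1426350_at, gave 352 and 186 against 146 and 175, and the higher mean of the hypomorphs came mainly from replicate 1. The log2 differences of Mgat2 were 0.12 ± 0.14 (SE) and 0.35 ± 0.18 (SE), or -0.09 and 0.14 relative to the median. The latter turned to -0.14 without hypomorph replicate 1 and was 0.40 without hypomorph replicate 2.

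Mgat4a and Mgat4b, a pair of isoenzymes that make the same branch, differed in their values. Mgat4a had signals of 284 and 217 in the hypomorphs and 160 and 170 in the controls on its brighter probe set, a log2 difference of 0.25 ± 0.16 (SE). This was 0.04 above the median of the tested genes, at -0.07 without control replicate 2 and 0.15 without control replicate 1. Its dim probe set overlapped after centring, with signals of 30.7 and 31.3 against 20.4 and 22.2. Mgat4b gave deposited signals of 152 and 114 in the hypomorphs and 120 and 141 in the controls, which overlap. Centring placed the hypomorphs at 6.90 ± 0.03 (SD, n = 2) and the controls at 7.21 ± 0.02 (SD, n = 2) on the log2 scale, with both hypomorph arrays below both controls. Its log2 difference of -0.31 ± 0.18 (SE) was -0.52 relative to the median and 0.02 without centring, so its sign depended on scaling. Relative to the median it stayed between -0.56 and -0.46 under the 13 alternatives, several of which cannot move it. The difference between the isoenzymes was not tested, since both are read from the contrast that chose the genes.

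**Figure D2:**
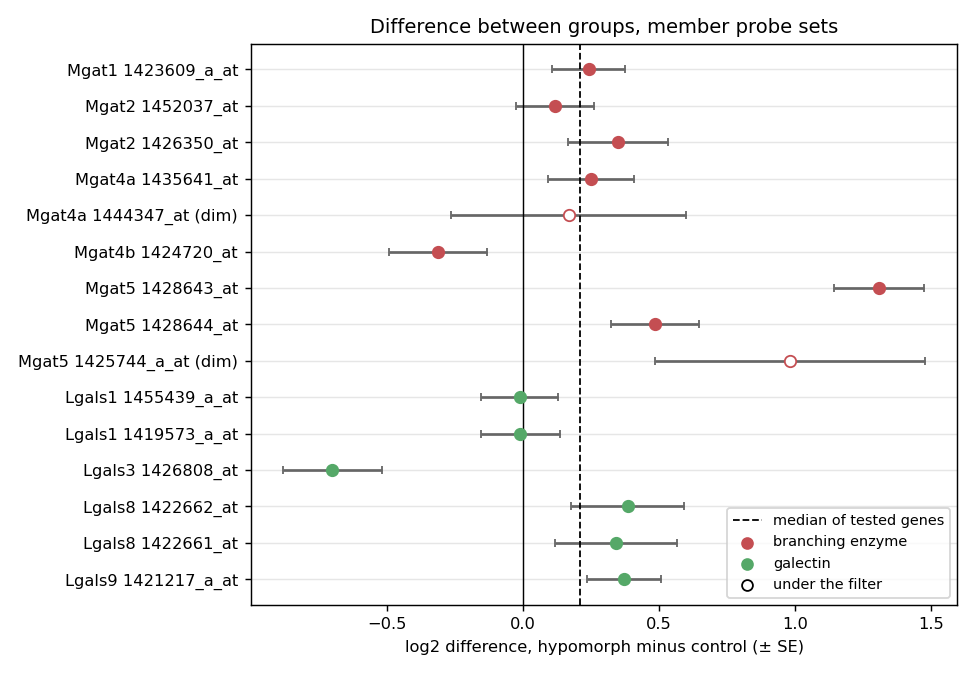
Log2 difference, hypomorph minus control, of each member probe set after median centring, with its standard error from the fit; red points are branching enzymes, green points galectins, open points probe sets under the filter, and the dashed line the median of the tested genes (0.21). Mgat5 at 1.31 and Lgals3 at -0.70 lie farthest from the line on either side.

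Among the galectins, Lgals3 lay lowest. It encodes galectin-3, which is also known as a macrophage surface antigen and is recruited to damaged lysosomes. The deposited signals were 150 and 95 in the hypomorphs and 144 and 168 in the controls, which overlap; the array of hypomorph replicate 1 had the highest median signal. Centred log2 signals averaged 6.77 ± 0.14 (SD, n = 2) in the hypomorphs and 7.47 ± 0.01 (SD, n = 2) in the controls, and both hypomorph arrays lay below both controls. The log2 difference was -0.70 ± 0.18 (SE), or 1.62-fold lower, and -0.91 relative to the median of the tested genes. It was negative under each scaling, at -0.37 without centring and -0.88 with quantile normalization. Leaving out 1 hypomorph array at a time gave -1.06 and -0.77 relative to the median, and arrays of the same number differed by -0.59 and -0.80 on the centred scale.

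Markers of other cell types were read beside Lgals3. Of 12 tested macrophage genes, 11 were below the median of the tested genes, with a median of -0.40 relative to it. None was called in limma, against 0.0622% of all tested probe sets, and 1 was at an unadjusted p under 0.05, against 16.1%. The centred signals of 18 macrophage genes summed to 1745 and 1825 in the hypomorphs and 1804 and 2460 in the controls. The sums thus overlapped, and the high value was that of control replicate 2. Much of it came from Lyz1 and Lyz2. As deposited, Lyz1 read 793 and 840 against 538 and 1122, and Lyz2 423 and 396 against 243 and 511. The deposited sums were 2304 and 1744 against 1494 and 2352. The centred sum of granulocyte markers was also highest on control replicate 2, at 5972. None of the defining markers was listed at 0: Csf1r, the receptor for the macrophage growth factor, had signals of 164 and 73.7 against 119 and 138, and C1qa, a complement component, 91.9 and 42.9 against 80.1 and 70.0. For dendritic cell markers 10 of 12 tested genes were below the median (list median -0.37), and the centred signals of all 15 summed to 4056 and 4312 in the hypomorphs and 4923 and 4565 in the controls. For B cell markers 6 of 7 were below (list median -0.64), with sums over 10 genes of 3840 and 4041 against 4834 and 4354. Both separations appeared on centring. The deposited sums overlapped, at 5334 and 4124 against 4092 and 4367 for dendritic cell markers. For B cell markers they also overlapped, at 5047 and 3865 against 4019 and 4165. Most of each B cell sum came from Ighm, which as deposited read 4395 and 3382 against 3513 and 3444. Its log2 difference was -0.18 ± 0.15 (SE). Most of each dendritic cell sum came from Cd74, H2-Aa, H2-Eb1 and H2-Ab1, at log2 differences of -0.33, -0.24, -0.20 and -0.14. As deposited, Cd74 read 1393 and 997 against 1149 and 1204, and H2-Aa 1482 and 1161 against 1178 and 1301. Ccr7 and Ccl22 of that list lay above the median of the tested genes, by 0.11 and 0.13. Thymocyte markers also lay mostly below the median of the tested genes, 11 of 15, with a list median of -0.14. With quantile normalization 9 of the 15 lay below, and the list median was -0.02. The macrophage, dendritic cell and B cell lists were then at -0.35, -0.26 and -0.61. In RNA from bulk samples, fewer cells of a type and less RNA per cell cannot be told apart, and the part of these cells in the Lgals3 value was not tested.

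Lgals1, which encodes galectin-1, a lectin known to promote death of thymocytes, had log2 differences near 0 after median centring. Its brighter probe set had signals of 4728 and 3497 in the hypomorphs and 2949 and 3612 in the controls, and its other probe set 2621 and 1734 against 1451 and 2014. As deposited and after median centring, the groups overlapped on both. This depended on scaling. With centring on the tested probe sets, both hypomorph arrays lay below both controls on each probe set. Quantile normalization gave that order on the brighter probe set alone. The median-centred log2 differences were -0.01 ± 0.14 (SE) and -0.01 ± 0.15 (SE), or -0.22 on each relative to the median. They were 0.32 on each without centring. Relative to the median, the range over the alternatives was -0.26 to -0.15 for the first and -0.34 to -0.11 for the second.

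Lgals8 encodes galectin-8, a tandem-repeat galectin known to mark damaged vesicles for autophagy, and its values turned on a single control array. On 1422662_at the signals were 505 and 348 in the hypomorphs, 185 on control replicate 1 and 351 on control replicate 2. On 1422661_at they were 226 and 175, then 90.7 and 170. Control replicate 1 was thus low on both probe sets, also after centring, while control replicate 2 lay between the hypomorphs after centring. The log2 differences of 0.39 ± 0.21 (SE) and 0.34 ± 0.22 (SE) were 0.18 and 0.13 above the median. They became -0.13 and -0.16 without control replicate 1 and 0.48 and 0.42 without control replicate 2, fits in which the groups are unequal in replicate number. Between arrays of the same number the differences were 0.78 and 0.64 for number 1, and -0.01 and 0.04 for number 2. Granulocyte markers were also lowest on control replicate 1, where the centred signals of 9 such genes summed to 676, against 2260 and 3815 in the hypomorphs and 5972 on control replicate 2. Their part in the Lgals8 values was not tested.

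Lgals9, which encodes galectin-9, another tandem-repeat galectin and a ligand of Tim-3, a receptor on T cells, was bright on all arrays. Its signals were 2321 and 1605 in the hypomorphs and 1035 and 1364 in the controls, and the groups did not overlap. The log2 difference of 0.37 ± 0.14 (SE) was 0.16 above the median of the tested genes, with a range of 0.08 to 0.24 over the alternatives.

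**Figure D3:**
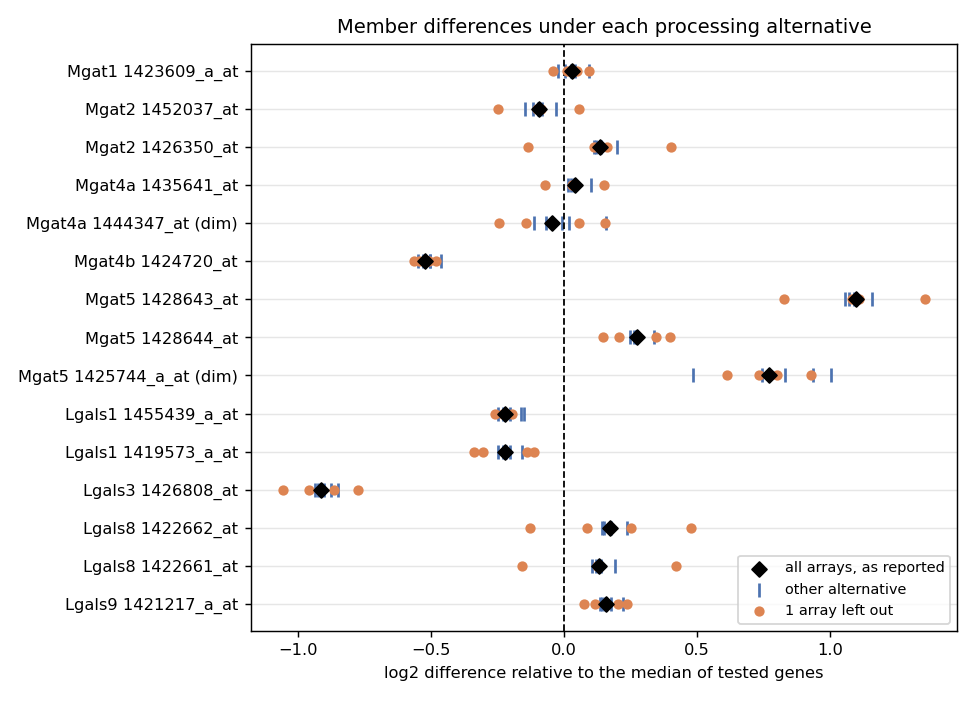
Log2 difference of each member probe set relative to the median of the tested genes (dashed line at 0), with all arrays (black diamonds), with 1 array left out (orange circles) and under the other alternatives (blue ticks). The Mgat5 points stay right of 0 and those of Mgat4b, Lgals1 and Lgals3 left of it, whereas those of Mgat1, Mgat2, Mgat4a and Lgals8 cross it.

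The rest of the pathway was read from lists of genes chosen by function. Of 139 further genes, 110 were tested and none was called in limma under the reported processing. Since 0.0622% of all tested probe sets were called, the lack of calls in a list of this size says little. At an unadjusted p under 0.05 in limma there were 14, or 12.7% of these genes. The share over all tested probe sets was 16.1%, which counts probe sets rather than genes and so is only a rough background. Their median lay -0.01 from that of the tested genes, with 54 above and 56 below.

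Genes that build and transfer the glycan precursor had 28 tested members, 17 above the median and 11 below. The list's own median was 0.05 above it. Rpn2, a subunit of the oligosaccharyltransferase, was at a log2 difference of 0.47 ± 0.15 (SE, adjusted p 0.244 in limma). Alg1, a mannosyltransferase of the precursor, was at 0.57 ± 0.22 (SE, adjusted p 0.282). Relative to the median, Rpn2 was at 0.26 and Alg1 at 0.36. Of 11 tested trimming genes, 7 were above the median and 4 below (5 and 6 with quantile normalization). Man1b1, a mannosidase of the secretory pathway, had signals of 206 and 163 in the hypomorphs against 75.9 and 102 in the controls, a log2 difference of 0.71 ± 0.19 (SE, adjusted p 0.217), which was the highest of its list. Uggt1, the folding sensor that returns glucose to the glycan, was at 0.40 ± 0.13 (SE, adjusted p 0.25). Relative to the median, Man1b1 was at 0.50 and Uggt1 at 0.19.

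Of the genes that supply nucleotide sugars, 13 of 28 tested were above the median and 15 below. Nans, the sialic acid synthase, had the smallest p of this list, at a log2 difference of 0.51 ± 0.13 (SE, adjusted p 0.211 in limma). Gfpt1, the first enzyme of the hexosamine pathway that feeds the branching enzymes, was at 0.41 ± 0.15 (SE, adjusted p 0.265). Relative to the median, Nans was at 0.30 and Gfpt1 at 0.20. The log2 differences of this list ran from -0.375 to 0.51. On the scale relative to the median they ran from -0.59 (Uap1l1) to 0.30 (Nans). Enzymes that extend and cap the branches were split likewise, with 8 of 18 above the median and 10 below. B3gnt2, which builds lactosamine repeats, was at 0.42 ± 0.13 (SE, adjusted p 0.244). C1galt1, which starts the core of mucin-type glycans, was at 0.28 ± 0.13 (SE, adjusted p 0.321). Fut8, which adds the core fucose, was at 0.29 ± 0.14 (SE, adjusted p 0.325). Relative to the median, B3gnt2 was at 0.21, C1galt1 at 0.07 and Fut8 at 0.08. The log2 differences of these enzymes ran from -0.30 to 0.67, or from -0.51 (B3gnt8) to 0.46 (Gcnt2) relative to the median.

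Glycoproteins that are known to carry branched glycans or to bind galectins had 9 of 22 tested genes above the median and 13 below. Tfrc, the transferrin receptor, was at a log2 difference of 0.53 ± 0.14 (SE, adjusted p 0.208 in limma), with signals of 869 and 588 in the hypomorphs against 344 and 449 in the controls. Lamp2, a lysosomal membrane protein, was at 0.37 ± 0.15 (SE, adjusted p 0.282). Relative to the median, Tfrc was at 0.32 and Lamp2 at 0.16. The log2 differences of this list ran from -0.69 to 0.53. On the scale relative to the median they ran from -0.905 (Lrp1) to 0.32 (Tfrc), so the gene farthest from it was a low one. Of 11 related enzymes and galectins on the array, 3 passed the filter on dim probe sets. Lgals3bp, a secreted glycoprotein that binds galectin-3, was at 0.20 ± 0.16 (SE, adjusted p 0.521), or -0.01 relative to the median. Its signals were 451 and 268 in the hypomorphs and 241 and 238 in the controls.

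**Figure D4:**
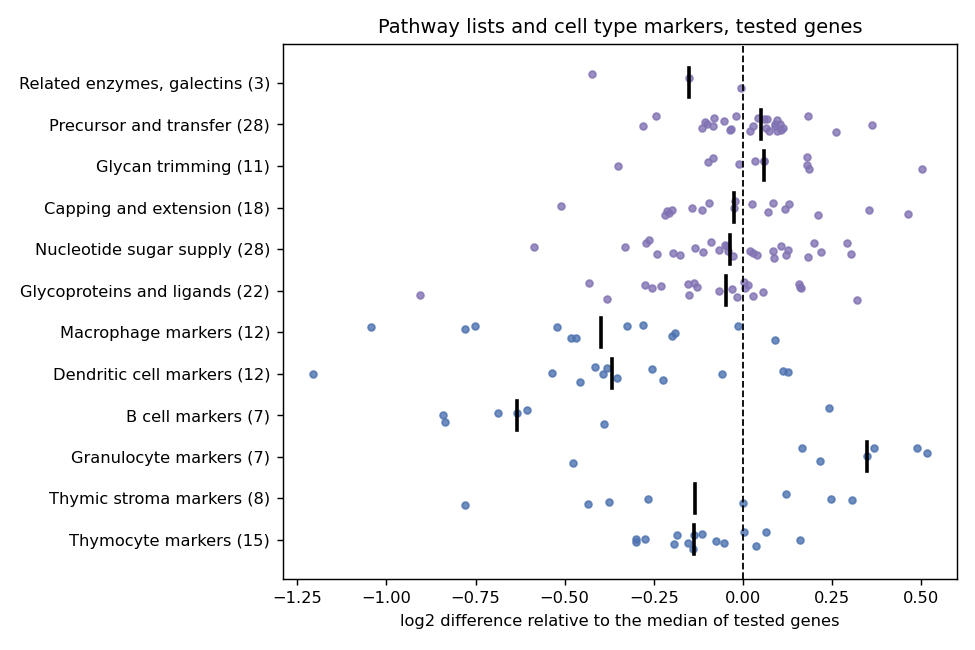
Log2 difference of each tested gene relative to the median of the tested genes (dashed line at 0), by list, with the number of tested genes in brackets and black bars for list medians; purple points are glycan pathway lists and blue points cell type markers. The pathway medians lie between -0.15 and 0.06, and those of macrophage, dendritic cell and B cell markers at -0.40, -0.37 and -0.64.

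Mgat5 and Mgat4a lie on chromosome 1, which also carries Atg16l1. In the gene order of the RefSeq table, counting the 1066 genes of that chromosome named on the arrays, Mgat5 lay 137 places and Mgat4a 310 places from Atg16l1. Of the 5 array genes on each side of Mgat5, 6 of 10 were tested and none was called, against 0.0622% of all tested probe sets. At an unadjusted p under 0.05 in limma there were 2, Lypd1 and Rab3gap1, against a share of 16.1% of all tested probe sets. Lypd1, 2 places away, had signals of 57.9 and 55.3 in the hypomorphs against 22.7 and 20.3 in the controls, with a log2 difference of 0.98 ± 0.32 (SE). Zranb3, 5 places away on the other side, had 120 and 91.6 against 55.7 and 63.3. Rab3gap1, 4 places away on the same side as Zranb3, had 683 and 460 against 310 and 403. For each of these the groups did not overlap after centring and the hypomorphs were higher. The same held for 43.8% of all tested probe sets. Among the dim neighbours, 2900009J06Rik was at 24.3 and 15.9 in the hypomorphs and at 1.23 and 1.10 in the controls, while Slc35f5 was at 5.04 and 18.1 against 15.4 and 31.0. Relative to the median, 3 of the 6 tested neighbours lay above and 3 below.

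**Figure D5:**
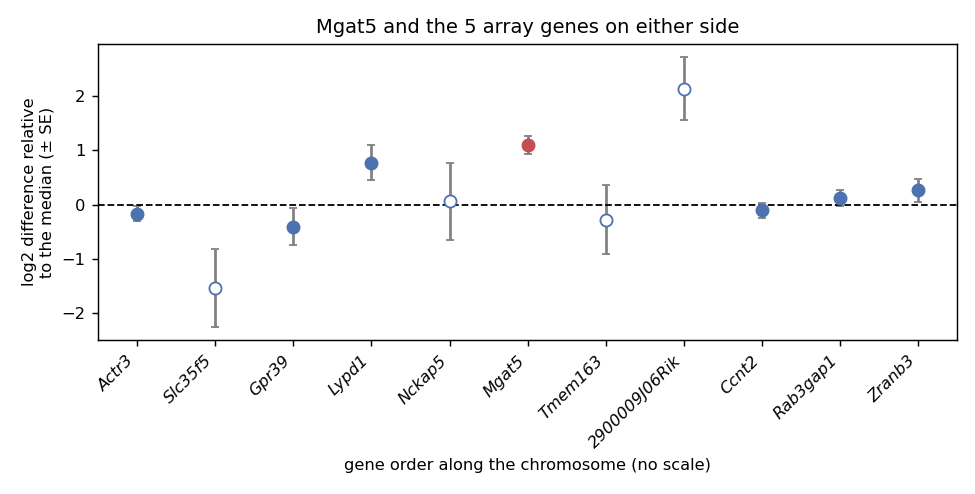
Log2 difference relative to the median of the tested genes, with its standard error, for Mgat5 (red, brightest probe set) and the 5 array genes on either side in gene order along chromosome 1 (blue, brightest probe set each); open points are under the filter. Tested neighbours range from -0.41 (Gpr39) to 0.77 (Lypd1), and the highest point is the dim 2900009J06Rik at 2.13.

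Patterns most like those of the 2 members farthest from the median were sought by the Euclidean distance between log2 profiles over the 4 arrays, each profile centred on its own mean. For Mgat5, whose own profile spread 1.35 from its mean on this scale, the nearest genes were Cdc20, an activator of the anaphase-promoting complex (distance 0.18), Cenph, a kinetochore protein (0.19), and Polr3k, a subunit of RNA polymerase III (0.32). Each gene was taken by its nearest tested probe set. Cdc20 had signals of 158 and 95.5 in the hypomorphs and 34.1 and 46.4 in the controls. As for Mgat5, hypomorph replicate 1 was highest and control replicate 1 lowest. This order is no separate result, since Cdc20 was chosen for its likeness to Mgat5 on these arrays. For Lgals3, with a spread of 0.71, the nearest were Gpatch2 (0.05), Phf8, a histone demethylase (0.05), and Cmtr2, an RNA cap methyltransferase (0.09). With 4 arrays, distances of this size describe these arrays alone.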

How the data were processed

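RNA of total thymocytes from 4 mice was isolated on columns and labelled with biotin, per the labels' protocols. The authors deposited 1 intensity per probe set on a linear scale, made with GCOS per the submitters' processing notes. The scaling target was not stated in the sources used here. Of 45101 probe sets, 64 controls were left out, and genes were named from the 34945 with 1 symbol. A pseudocount of 2.29 (the 10th percentile of signals) was added before taking log2, so differences of dim genes are understated. Arrays were centred on a common median because their medians spanned 0.66. Group differences were fitted in R 4.3.3 by limma 3.58.1 (variance trend, two-sided, no covariates) across 22519 probe sets, with Benjamini-Hochberg adjustment and a threshold of 0.05. Standard errors of dim probe sets came from a fit without the filter. A gene in a list is represented by its brightest probe set. The fit was checked on simulated data with independent noise and no shared shift between the groups. That check therefore does not cover the shift of the tested genes or the choice of scaling. The alternatives covered scaling, pseudocount, filter, variance model, replicate block, probe set choice and each array left out. Named were all members, from each glycan or macrophage list up to 4 genes with the smallest p, thymocyte and sex-linked genes as checks of the samples, neighbours of Mgat5 and nearest profiles. That p is for no difference between the groups, rather than for the median of the tested genes. Lyz1, Lyz2, Ighm, Cd74, H2-Aa, H2-Eb1 and H2-Ab1 were named because they made up much of a marker sum. Ccr7 and Ccl22 were named as dendritic cell markers above the median, and Lrp1, Uap1l1, B3gnt8 and Gcnt2 as ends of list ranges. Members and lists were chosen with earlier results of these data known.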

Additional observations from a re-analysis of the deposited data

How the results depend on the processing

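The count of called probe sets, 14 as reported, depended on the processing. Quantile normalization gave 4, centring on the tested probe sets 7, and the count was 84 without centring and 4 without the filter. Without the variance trend it was 0, at 2492 with an unadjusted p under 0.05 in limma. Leaving out 1 array gave 7 to 161 calls: 161 without hypomorph replicate 1, 63 without hypomorph replicate 2, 7 without control replicate 1 and 22 without control replicate 2. In such fits the lone array of a group is assumed to vary like the others. The groups are then also unequal in replicate number, which Xist and Eif2s3y follow. With the replicate number as a block 9 probe sets were called. Same-numbered arrays deviated together with a correlation of 0.08, and the labels do not pair them, although Xist and Eif2s3y follow the number, so this block also takes up what goes with those genes. It leaves each difference as it is and alters its error. The median log2 difference of the tested genes, 0.21 as reported, was 0.022 after quantile normalization, 0.037 when centred on tested probe sets, 0.54 without centring and 0.16 to 0.36 with 1 array left out. The number of member probe sets above that median stayed between 8 and 10 under all 13 alternatives. Changes of centring, the variance model and the replicate block cannot alter this number. The 2 dim member probe sets had standard errors of 0.43 and 0.50, so low signal limits what they can show.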
